A study of Mus musculus with 4 samples.

Results

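Forskolin-only promoter regions are stretches of DNA at gene starts where phosphorylated CREB was called after forskolin and not after vehicle. There were 671 of them, out of 28335 merged regions in the series. A region was taken as a member when it had a peak in both forskolin lists and in neither vehicle list. Its centre also had to lie no more than 1 kb from a transcription start site (TSS). Any annotated transcript of a protein-coding gene supplied a TSS, whether or not that transcript is itself coding. The members were thus chosen by the peak calls themselves, and no test of forskolin against vehicle is given for them. The libraries came from MC3T3-E1, an established mouse line described as pre-osteoblasts, treated for 1 h with 100 nM forskolin (2 libraries) or for 1 h with DMSO vehicle (2 libraries). Chromatin was precipitated with an antibody against CREB phosphorylated at serine 133, and the deposited data are 1 peak list per library with a position and a score per peak. Peak lists do not measure RNA, so the identity of the cells cannot be checked from their markers here.

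CREB is a transcription factor of the basic leucine zipper family that binds the cAMP response element (CRE), a palindrome, or its shorter core. Forskolin activates adenylyl cyclase, cAMP rises, protein kinase A phosphorylates CREB at serine 133, and the phosphorylated form recruits the coactivators CBP and p300. CREB sits at many promoters before any stimulus, often near the TSS and in CpG islands, the unmethylated CG-rich stretches that cover most housekeeping promoters. In bone cells, parathyroid hormone acts through the same cAMP pathway. AP-1, formed by Fos and Jun proteins, binds a closely related site that lacks the central base pair of the CRE.

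The full CRE, TGACGTCA, is the palindrome that CREB binds, and 17 members held it within 100 bp of their centre. The sequences of 9 of the higher-ranked are shown, on the strand of the gene and in mm9 coordinates, with the CRE in capitals. Rank means the order by the lower of the 2 forskolin score percentiles, where a percentile gives a peak's place among the scores of its own list.
Gm16519 (chr17:71278785-71278892, plus strand): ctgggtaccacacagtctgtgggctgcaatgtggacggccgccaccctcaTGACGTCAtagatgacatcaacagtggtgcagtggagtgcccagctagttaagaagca
Amotl2 (chr9:102620665-102620772, plus strand): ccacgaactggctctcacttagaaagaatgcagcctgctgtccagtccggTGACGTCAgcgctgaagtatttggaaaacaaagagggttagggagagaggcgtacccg
9330159F19Rik (chr10:28931392-28931499, plus strand): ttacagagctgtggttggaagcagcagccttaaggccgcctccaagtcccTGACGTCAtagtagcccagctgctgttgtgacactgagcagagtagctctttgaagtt
Cep55 (chr19:38130425-38130532, plus strand): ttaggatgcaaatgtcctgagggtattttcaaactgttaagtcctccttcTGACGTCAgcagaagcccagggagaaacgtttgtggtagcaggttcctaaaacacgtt
Gpr153 (chr4:151649133-151649240, plus strand): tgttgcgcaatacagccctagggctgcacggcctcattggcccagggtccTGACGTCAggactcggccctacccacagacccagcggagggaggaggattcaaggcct
Stk17b (chr1:53841195-53841302, minus strand): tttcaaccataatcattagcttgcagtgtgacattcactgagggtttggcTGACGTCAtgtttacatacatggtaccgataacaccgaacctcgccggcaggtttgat
Onecut3 (chr10:79957512-79957619, plus strand): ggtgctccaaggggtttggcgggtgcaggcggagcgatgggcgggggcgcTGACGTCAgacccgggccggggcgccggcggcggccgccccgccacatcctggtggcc
Lrrc67 (chr1:9999223-9999330, minus strand): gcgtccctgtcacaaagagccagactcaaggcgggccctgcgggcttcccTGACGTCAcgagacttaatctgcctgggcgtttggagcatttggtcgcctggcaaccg
Col24a1 (chr3:144955379-144955486, plus strand): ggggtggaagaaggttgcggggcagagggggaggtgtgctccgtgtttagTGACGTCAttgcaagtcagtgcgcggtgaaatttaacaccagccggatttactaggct
In Amotl2, Onecut3 and Lrrc67 the CRE lay upstream of the nearest TSS, and its first base stood at -44, -89 and -63 bp. In 9330159F19Rik and Col24a1 its first base stood at -7 bp and its last base on the TSS itself. In Gm16519, Cep55, Gpr153 and Stk17b it lay inside the transcribed side, at 476, 943, 712 and 816 bp.

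Most of the highest-ranked members carried only the core of the element, TGACG. On the other strand it reads CGTCA. The 3 highest-ranked of these are shown with the core in capitals, and in Cirbp a further copy of the core lies in the same window.
Cirbp (chr10:79628594-79628698, plus strand): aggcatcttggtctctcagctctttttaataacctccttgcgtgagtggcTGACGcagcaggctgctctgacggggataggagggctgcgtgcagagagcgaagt
A730049H05Rik (chr6:92777251-92777355, plus strand): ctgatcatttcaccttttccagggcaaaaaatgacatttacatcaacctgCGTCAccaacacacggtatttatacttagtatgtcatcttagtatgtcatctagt
Eprs (chr1:187187637-187187741, plus strand): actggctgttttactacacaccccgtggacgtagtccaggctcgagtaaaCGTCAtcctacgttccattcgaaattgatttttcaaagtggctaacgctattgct
Members with an AP-1 site, TGAGTCA, and no CRE core are represented by the 2 highest-ranked. The AP-1 site is in capitals, and on the other strand it reads TGACTCA.
Zfp91 (chr19:12871152-12871258, minus strand): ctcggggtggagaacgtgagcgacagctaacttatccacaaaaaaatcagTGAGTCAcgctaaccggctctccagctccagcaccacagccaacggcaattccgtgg
Mrpl48 (chr7:107739309-107739415, minus strand): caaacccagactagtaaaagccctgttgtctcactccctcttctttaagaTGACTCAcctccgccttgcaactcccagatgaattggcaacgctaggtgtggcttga
The distance from the TSS to the motif's first base was -86 bp in Cirbp, -325 bp in A730049H05Rik, 676 bp in Eprs, -592 bp in Zfp91 and 575 bp in Mrpl48.

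Over all merged regions 18.3% were forskolin-only, and of the 10152 regions centred within 1 kb of a TSS 6.61% were. These shares describe the rule and were not tested. The 671 members lay near 692 protein-coding genes, 3.11% of the 22238 annotated gene symbols. For comparison, 30.3% of the genes had a promoter region called in all 4 libraries and 44.5% had one of any class. Of the 692 genes, 413 (59.7%, Wilson 95% interval 56.0 to 63.3) had no promoter region of another class. That share has no comparison here and is a description only. Of the 692, 107 (15.5%, 13 to 18.3) also had a promoter region of all 4 libraries. Intervals here and elsewhere cover counting error only. Regions of the same libraries are not replicates of a condition, so shares are set side by side without a test.

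The members were mostly low in the forskolin lists, with a small number of strong ones. Their median score percentile was 36.1 in forskolin replicate 1 (lowest 0.0645, highest 99.8) and 32.0 in forskolin replicate 2 (lowest 0.00516, highest 99.6). Promoter regions of all 4 libraries had medians of 78.8 and 73.1 in the same lists. Other classes were low too, so this is not particular to members. The medians were 45.9 and 32.0 in promoter regions of both forskolin and 1 vehicle library. They were 46.3 and 36.4 in forskolin-only regions 1 to 10 kb from a TSS. Promoter regions called mostly in 1 library had 23.4 and 27.2, where called in these lists. Of the 671 members, 134 (20%, 17.1 to 23.2) were above the middle of both lists, 40 were above percentile 75 in both and 11 above percentile 90 in both. At the other end, 158 (23.5%, 20.5 to 26.9) were under percentile 25 in both lists. The centres of the 2 forskolin peaks of a member lay a median of 40 bp apart, against 26 bp in promoter regions of all 4 libraries. The members were close to like classes in this. The median was 39 bp in promoter regions of both forskolin and 1 vehicle library. It was 37 bp in forskolin-only regions 1 to 10 kb from a TSS and 41 bp in those at 10 to 100 kb. Read totals are not in the lists, so depth is not known directly. Scores under 50 fell on whole multiples of a step within 0.05 in 98.8% to 100% of cases, and the step was 0.239 in forskolin replicate 1 and 0.688 in forskolin replicate 2. At the step of forskolin replicate 1 that tolerance would take in 41.9% of values by itself. If a step is 1 tag, which the sources do not state, forskolin replicate 2 had 0.347 times the depth of the other, and the median member held 48.1 and 16 tags in the 2 lists. On that reading vehicle replicates 1 and 2, with steps of 0.232 and 0.224, had 1.03 and 1.07 times the depth of forskolin replicate 1. At those steps the tolerance would take in 43.1% and 44.6% of values by itself.

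**Figure D1:**
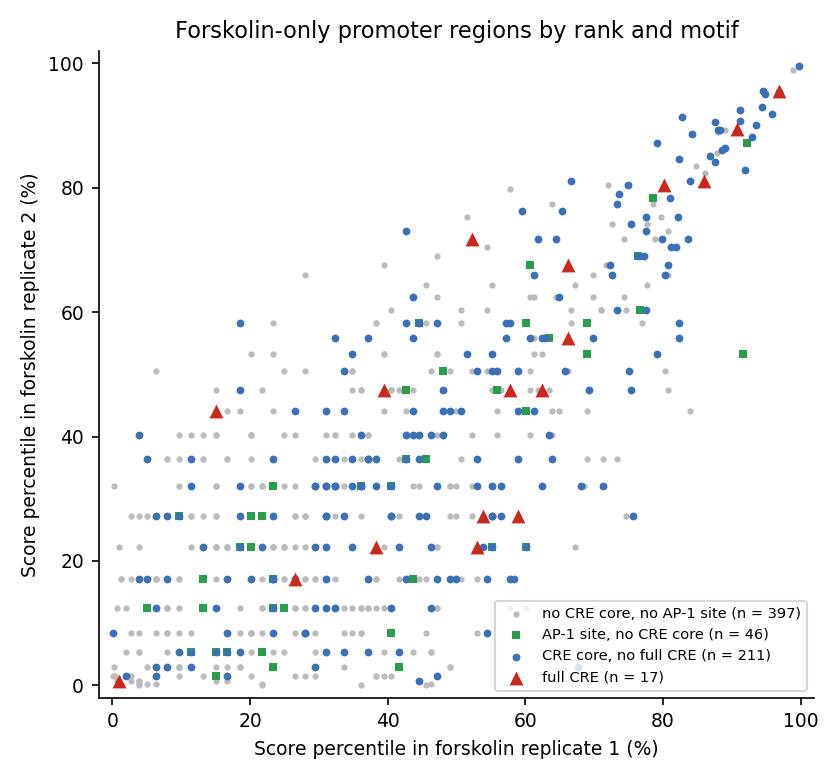
Score percentiles of the 671 forskolin-only promoter regions in forskolin replicate 1 (x axis, %) and forskolin replicate 2 (y axis, %), 1 point per region, coloured by motif within 100 bp of the centre. Triangles mark the 17 regions with a full CRE, which run from the lowest ranks to percentiles 96.9 and 95.5, and the upper right corner is filled mainly by regions with a CRE core.

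The highest-ranked member lay at Cirbp, an RNA-binding protein gene induced by cold (chr10:79628474-79628789, intergenic, centre -98 bp from its TSS). Its deposited scores were 289.3 and 154.2 in forskolin replicates 1 and 2. For the members that follow, paired values are these deposited scores in the same order, unless they are named as percentiles. The Cirbp region held 2 copies of the CRE core and an AP-1 site, while its TSS was in no CpG island. Gm10463, a predicted gene, followed with 150.4 and 117.0 and with neither a CRE core nor an AP-1 site (chr5:32436001-32436320, intergenic, -620 bp). Crem encodes activators and repressors of the CREB family, among them the inducible repressor ICER. Its member lay at an internal TSS in an intron (chr18:3281677-3281998, -71 bp), had scores of 98.1 and 66.1, and stood 733 bp from a region of all 4 libraries. Next were A730049H05Rik with 99.3 and 64.7 and Eprs, a tRNA synthetase for glutamate and proline, with 76.4 and 62.6 (chr1:187187518-187187828, intron, 662 bp downstream of an internal TSS). The region at Mogat1, a monoacylglycerol acyltransferase, scored 74.0 and 66.8. At Rabgef1, an exchange factor for Rab proteins, the scores were 72.8 and 53.0. Both of these lay near the outer edge of the 1 kb window, at 977 and 881 bp.

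The water channel gene Aqp1 was one of only 4 members whose nearest TSS had a TATA box (TATAAA 40 to 15 bp upstream, on the sense strand), the others being Zfp36l1, Alx1 and Inhba. That is 0.596% of members (0.232 to 1.52), against 0.585% of promoter regions of all 4 libraries and 1.31% of all annotated TSS. The Aqp1 region (chr6:55286605-55286991, exon, 372 bp) had scores of 86.6 and 48.9 and a CRE core. Tgif1, a homeobox repressor of TGF-beta signalling, had an intronic member whose centre was -669 bp from the nearest, internal TSS (chr17:71201588-71201898, scores 54.7 and 45.4). Others of the highest-ranked 20 lay at Whsc1l1, a histone methyltransferase gene (45.8 and 41.3, -40 bp), at Zhx2, a transcriptional repressor (62.8 and 39.2, -33 bp), and at Mgea5, the enzyme that removes O-GlcNAc from proteins (45.1 and 40.6, -385 bp). The remainder were A330021E22Rik, Exd1 with 1500003O03Rik, Ncald, Fam71f1, Tnfrsf9 with Park7, Pde10a, Zfp91 and Zcchc7. Of these 20 regions, 16 held the CRE core, 10 had an internal TSS as the nearest, and 7 stood within 2 kb of a region of all 4 libraries.

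Ncald, which encodes the calcium sensor neurocalcin delta, had the highest-ranked full CRE after Crem (intron, scores 53.0 and 42.0). It was far from any region of all 4 libraries, the nearest lying 451811 bp away. Amotl2, an angiomotin family gene of the Hippo pathway, had its CRE region 766 bp from a region of all 4 libraries (31.5 and 28.2). Cep55, a cytokinesis gene, had its own 925 bp from such a region (21.2 and 15.8). These 3 of Crem, Amotl2 and Cep55 were the only CRE members whose gene also had a promoter region of all 4 libraries. Col24a1 encodes a fibrillar collagen, and its CRE region was called with 17.9 and 10.3 (chr3:144955222-144955552, intergenic, -49 bp). Pde7b, a cAMP phosphodiesterase, had a full CRE in a region at -109 bp with 15.8 and 9.6 (chr10:20444831-20445154, intergenic). Further CRE members lay at Gm16519, 9330159F19Rik, Gpr153, Stk17b, Onecut3, Lrrc67, Heatr8, Gm10369, Slc1a7 and Kcnf1.

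The gene lists were chosen with earlier results of these data known, so their counts are descriptions. Of 48 annotated CREB and cAMP immediate targets, 5 (10.4%) had a member, against 3.11% of all genes, and 32 (66.7%) had a promoter region of all 4 libraries, against 30.3%. The 5 were Crem, Jun, Egr2, Egr4 and Bdnf. Jun, an AP-1 subunit, had its region at -441 bp with scores of 16.2 and 14.5 (chr4:94719165-94719542, intergenic). Egr2 and Egr4 are zinc finger immediate early genes, and their regions scored 14.1 and 17.9 and 12.9 and 11.7. The neurotrophin gene Bdnf, which has many alternative promoters, had its member at an internal TSS (-32 bp, 14.6 and 11). Of these 5, Crem, Egr2 and Bdnf also had a promoter region of all 4 libraries.

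Genes of cAMP signalling had a member in 5 of 48 cases (10.4%, against 3.11% of all genes). A promoter region of all 4 libraries was at 16 of the 48 (33.3%), near the 30.3% of all genes. The 5 with a member included 3 phosphodiesterases, Pde4b, Pde7b and Pde10a, which degrade cyclic nucleotides. The others were the genes of an anchoring protein, Akap13, and of a regulatory subunit of protein kinase A, Prkar2a. Pde10a ranked highest, at percentiles 87.6 and 90.5. Pde4b followed at percentiles 71.7 and 67.5 with no CRE core, and Akap13 at 76.9 and 58.2 with none either. Prkar2a was low, at percentiles 31.0 and 12.4, with a CRE core. Of 34 PTH-responsive genes of bone cells, 2 (5.88%, against 3.11% of all genes) had a member, a small count that was not tested. They were Fgf2 at an internal TSS (percentiles 36.1 and 36.4) and Ptger4, a prostaglandin E2 receptor coupled to cAMP production (15 and 22.2, all as percentiles).

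Of 30 osteoblast genes, 3 (10%) had a forskolin-only promoter region, against 3.11% of all genes. The count of 3 is small, and the difference was not tested. A promoter region of all 4 libraries was at 1 of the 30 (3.33%), against 30.3% of all genes, and one of any class at 11, against 44.5%. Runx2, the transcription factor that sets the osteoblast lineage, had its member in an exon at -15 bp from an internal TSS (chr17:44951346-44951836). Its percentiles were 80.8 in forskolin replicate 1 and 47.5 in forskolin replicate 2, and it held a RUNX site and no CRE core. Phospho1, a phosphatase of matrix mineralisation, had a region in an exon with scores of 21.5 and 17.2 (chr11:95685744-95686072). Alpl, the bone alkaline phosphatase, had 2 members near internal TSS. One was centred on a TSS and held a CRE core (13.4 and 11.7), and the other lay 672 bp downstream and was among the lowest-ranked in forskolin replicate 1 (5.5 and 9.6).

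In the Wnt, BMP, TGF-beta and Notch list 5 of 59 genes (8.47%, against 3.11% of all genes) had a member: Tgif1, Hes1, Skil, Inhba and Fzd8. Hes1, a repressor induced by Notch, had its region 1060 bp from a region of all 4 libraries (17.4 and 27.5). Skil, a Smad corepressor, Inhba, an activin subunit, and Fzd8, a Wnt receptor, were low, with lower percentiles of 20.1, 8.5 and 5.0. Growth factor, cytokine and receptor genes had 2 of 48 (4.17%), Irs1, an insulin receptor substrate (percentiles 61.3 and 55.9), and the interleukin 33 receptor gene Il1rl1 (92 and 82.9). The lists that follow have at most 24 genes, so that counts of 0 or 1 are uninformative beside the 3.11% of all genes. Aminoacyl-tRNA synthetases had 1 of 20 (Eprs) and clock genes, counted with the cold-inducible pair Cirbp and Rbm3, 1 of 22 (Cirbp). None of the 24 core CREB housekeeping targets had a member, while 23 of them (95.8%) had a promoter region of all 4 libraries. Among markers of other cell types, 1 of 10 chondrocyte genes had a member (Sox9, percentiles 80.3 and 65.9). The adipocyte (10 genes), skeletal muscle (10), haematopoietic and osteoclast (9) and neuron (14) lists had 0.

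A gene with more than 1 member was rare, with 16 of the 692 (2.31%). They were 2600006K01Rik, Alpl, Atp8b2, Cenpb, Cercam, Cited2, Col24a1, Dnm1, Dynlt3, Ehd1, Gpr153, Rhbdl2, Specc1, Tpm1, Zfp395 and Znrf3, and 2600006K01Rik and Cercam shared the same pair of regions. Cited2 encodes a transcriptional regulator that binds CBP and p300, the coactivators of phosphorylated CREB. Its members lay at -931 bp (19.8 and 13.8) and at 29 bp (22.7 and 11.7), neither with a CRE core, and the closest region of all 4 libraries was 224989 bp away. The 2 members of Tpm1, a tropomyosin gene, lay at -13 and 1 bp from separate internal TSS (15.5 and 11, and 12.2 and 8.3).

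The distance from the TSS was set beside that of the other promoter classes. The median distance from the centre to the nearest TSS was 182 bp in members, 119 bp in the 1108 promoter regions of both forskolin and 1 vehicle library, 169 bp in the 50 vehicle-only promoter regions and 64 bp in regions of all 4 libraries. It was 205 bp in the remaining 2339 promoter regions, called mostly in 1 library. Within 250 bp of a TSS were 400 of 671 members (59.6%, 55.9 to 63.3) and 87.8% (86.9 to 88.6) of the 5984 promoter regions of all 4 libraries. The centre lay upstream of the TSS in 409 members and downstream in 260. It was intergenic in 260, in an intron in 241 and in an exon in 170. At the edge of the rule, the 3 members just inside 1 kb were Kcnk10 at 995 bp (percentiles 91.6 and 53.3), Aldh18a1 at 1000 bp (45.5 and 27.2) and Larp1b at 1000 bp (31.0 and 40.3). Just outside lay Pkd2 at 1004 bp (26.5 and 36.4), Ivd at 1007 bp (91.4 and 85.1) and Emp3 at 1007 bp (74.3 and 70.4).

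**Figure D2:**
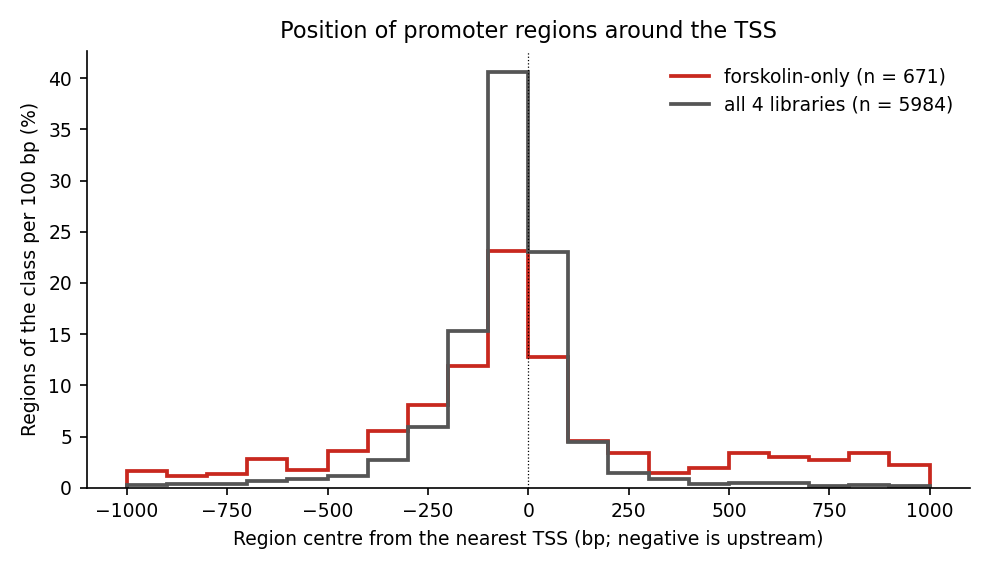
Share of regions per 100 bp (y axis, %) by the distance of their centre from the nearest TSS (x axis, bp, negative is upstream), for 671 forskolin-only promoter regions and 5984 promoter regions of all 4 libraries. Both peak just upstream of the TSS, and the forskolin-only regions have the lower peak and the heavier tails, with median distances of 182 and 64 bp.

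Internal start sites were about as common in members as in vehicle-only and mostly 1-library promoter regions. The nearest TSS was the most upstream of its gene in 364 members (54.2%, 50.5 to 58.0), against 60.8% of promoter regions of both forskolin and 1 vehicle library, 54.0% of vehicle-only ones, 52.7% of the mostly 1-library ones and 70.9% (69.7 to 72.0) of those of all 4 libraries. In 81 of the 307 members at an internal TSS (26.4%, 21.8 to 31.6) the gene also had a promoter region of all 4 libraries, and in 21 of the 364 at the most upstream TSS (5.77%, 3.8 to 8.66). A gene with an internal TSS has another TSS by definition, which a gene of the second group need not have. The shares are thus not like for like, and their difference was not tested. The nearest TSS lay in a CpG island in 496 members (73.9%, 70.5 to 77.1), in 95.8% (95.3 to 96.3) of promoter regions of all 4 libraries and in 53.9% of all annotated TSS. In the other promoter classes this share was 88.8% (both forskolin and 1 vehicle library), 80.0% (vehicle-only) and 83.5% (mostly 1 library). Within 100 bp of the centre the median GC content was 58.2% in members, 63.2% in promoter regions of all 4 libraries and 49.8% in forskolin-only regions 1 to 10 kb from a TSS.

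Few members sat beside a site called in every library. Such a region was centred within 1 kb of 30 members (4.47%, 3.15 to 6.31), against 0.986% (0.765 to 1.27) of promoter regions of all 4 libraries and 0.756% (0.398 to 1.43) of forskolin-only regions 1 to 10 kb out. The share was 2.53% in promoter regions of both forskolin and 1 vehicle library, 7.27% in those mostly of 1 library and 10% in vehicle-only ones, so members were within the range of these classes. Without forskolin replicate 1 the share in members was 8.47%. Among the 20 highest-ranked members there were 5, at Crem, Eprs, Mogat1, Exd1 and Zhx2. No other region of any class lay within 1 kb of 526 members (78.4%, 75.1 to 81.3). The same share is not given for other classes, so whether it is particular to members is not known here. A separate region with a vehicle peak was centred within 500 bp of 26 members and within 1 kb of 119 (17.7%, 15 to 20.8), against 3.7% (2.77 to 4.93) of forskolin-only regions 1 to 10 kb out. These classes are not like for like, since 54.3% and 63.5% of the peaks of vehicle replicates 1 and 2 lay within 1 kb of a TSS. No other promoter class is given for this share.

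Sites for AP-1 were in 11.5% of members, and in 2% to 4.32% of the other promoter classes. The full CRE was rare in members, as in the other promoter classes short of all 4 libraries. The search covered both strands, 100 bp to each side of a region's centre. AP-1's TGAGTCA was in 77 members (11.5%, 9.28 to 14.1), against 2.34% (1.99 to 2.75) of promoter regions of all 4 libraries, 2.67% of windows of the same length at annotated TSS and 20.9% (18.7 to 23.3) of forskolin-only regions 1 to 10 kb out. It was in 3.43% (2.51 to 4.67) of promoter regions of both forskolin and 1 vehicle library, 4.32% (3.57 to 5.22) of the mostly 1-library ones and 1 of 50 vehicle-only ones. The full CRE was in 2.53% (1.59 to 4.02) of members, 7.32% (6.69 to 8.01) of promoter regions of all 4 libraries, 3.11% (2.26 to 4.26) of forskolin-only regions 1 to 10 kb out and 1.5% of TSS windows. It was in 1.81% (1.17 to 2.77) of promoter regions of both forskolin and 1 vehicle library, 0.513% (0.294 to 0.895) of the mostly 1-library ones and 0 of 50 vehicle-only ones, which allows up to 7.13%. The CRE core, which every full CRE also holds, was in 228 members (34.0%, 30.5 to 37.6), in 42.8% (41.5 to 44) of promoter regions of all 4 libraries and in 17.9% of TSS windows. Promoter regions of both forskolin and 1 vehicle library held the core in 23.9%, the mostly 1-library ones in 18.9% and the vehicle-only ones in 12%. With equal numbers of top-scoring peaks per list there were 140 members, and the core was in 57.1% of them (48.9 to 65) against 51.7% of promoter regions of all 4 libraries. The full CRE was then in 6.43% (3.42 to 11.8) against 9.87%. Both intervals take in the value of the promoter regions of all 4 libraries, so counting error does not separate them. AP-1 sites were then in 20% (14.2 to 27.4) against 2.26%. Without vehicle replicate 1 the AP-1 shares were 7.13% and 2.37%, and without forskolin replicate 2 the full CRE shares were 1.43% and 7.19%.

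AP-1 shares differed with the CpG island at the TSS, and the part of base composition was not tested. At TSS in CpG islands an AP-1 site was in 6.45% of 496 members (4.61 to 8.97) and 1.88% (1.56 to 2.27) of promoter regions of all 4 libraries. Outside CpG islands the shares were 25.7% of 175 members (19.8 to 32.7) and 12.7% (9.18 to 17.4). The RUNX site TGTGGT, read by the Runx factors of the osteoblast lineage, was in 15.8% of members (13.2 to 18.8), 7.97% of promoter regions of all 4 libraries, 12.2% of the mostly 1-library ones and 36.1% of forskolin-only regions 1 to 10 kb out. Sites of general promoter factors were set beside promoter regions of all 4 libraries and the mostly 1-library ones. The GC box GGGCGG of the Sp1 family was in 35.8% of members, against 51.8% and 37.5%. The ETS site CCGGAA was in 10.3%, against 30% and 12.6%. CCAAT, bound by NF-Y, was in 25.2%, against 35% and 20.6%. The windows at all annotated TSS held these 3 in 34.4%, 13.5% and 23.8% of cases. The E-box CACGTG was in 5.51% of members and 9.01% of promoter regions of all 4 libraries. TATAAA anywhere in the window was in 4.47% and 2.79%, and the palindromic NRF1 site in 0.447% and 1.34%. The mostly 1-library promoter regions held the E-box, TATAAA and NRF1 sites in 5.39%, 3.63% and 0.684% of cases. In TSS windows they were in 4.94%, 6.62% and 0.76%. The composite site TGATGCAA of C/EBP and ATF factors was in 0 of 671 members, which allows a share of up to 0.569%. It was in 0.518% of promoter regions of all 4 libraries, 0.47% of the mostly 1-library ones and 0.443% of TSS windows. All of these lie within that limit, so counting error does not separate the members from them.

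**Figure D3:**
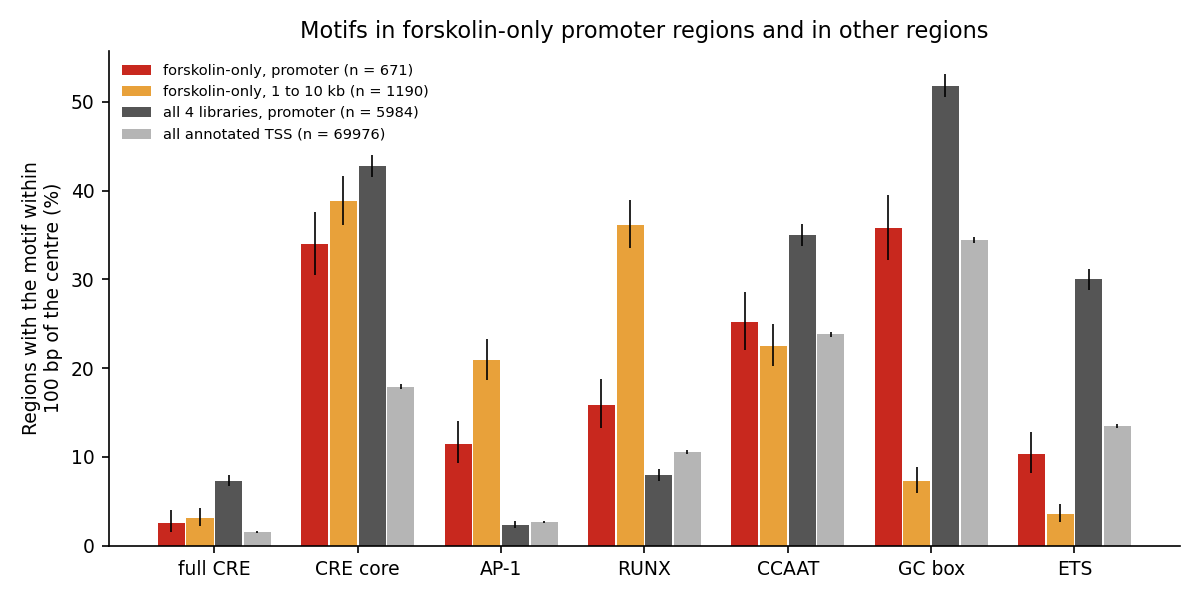
Share of regions (y axis, %) with each motif (x axis) within 100 bp of the centre, with Wilson 95% intervals as error bars, for forskolin-only promoter regions, forskolin-only regions 1 to 10 kb from a TSS, promoter regions of all 4 libraries and windows of the same length at all annotated TSS. Forskolin-only promoter regions hold AP-1 sites in 11.5% of cases and full CREs in 2.53%, against 2.34% and 7.32% in promoter regions of all 4 libraries.

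Higher-ranked members held the CRE core more often. Since the scores come from the peaks that chose the members, this is a description. In the highest-ranked quartile, 168 regions with a lower percentile of at least 44.1, the core was in 51.2% (43.7 to 58.6) and the full CRE in 5.36% (2.84 to 9.87). In the lowest-ranked, 167 regions with a lower percentile of at most 11.4, the core was in 21.6% (16 to 28.4), an interval that takes in the 17.9% of TSS windows, and the full CRE in 0.599% (0.106 to 3.31). AP-1 sites were in 21.4%, 6.55%, 10.1% and 7.78% from the highest- to the lowest-ranked quartile. A CpG island at the TSS went the other way, with 62.5% in the highest-ranked quartile and 79% in the lowest-ranked. The median GC content moved with rank too, at 53.2% in the highest-ranked and 60.2% in the lowest-ranked quartile, and its part in the trend of the core was not tested. Of the 17 full CREs, 13 (76.5%) lay within 25 bp of the region's centre, and of the 86 AP-1 sites 33 (38.4%) did. In promoter regions of all 4 libraries these shares were 67.0% and 31.9%. They were 44.7% and 30.7% in forskolin-only regions 1 to 10 kb out, and 64.4% and 29.3% at 10 to 100 kb. With so few full CREs in members, the differences were not tested.

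**Figure D4:**
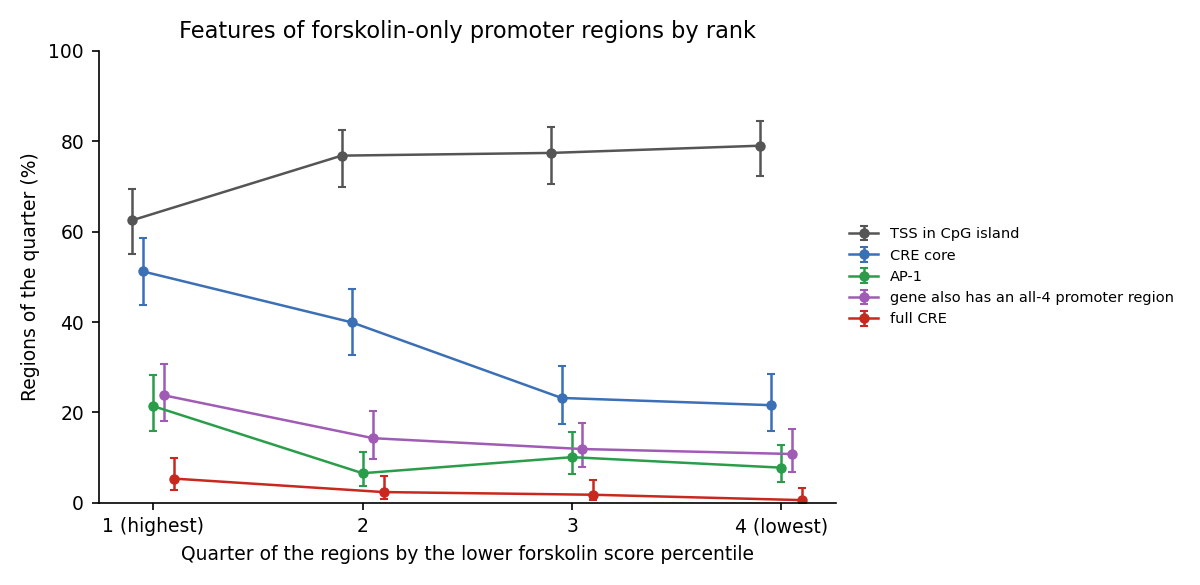
Share of forskolin-only promoter regions (y axis, %) with each feature in 4 groups of 167 or 168 by the lower of the 2 forskolin score percentiles (x axis, highest group at the left), with Wilson 95% intervals. The CRE core is in 51.2% of the highest and 21.6% of the lowest group, and CpG islands at the TSS are in 62.5% and 79%.

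Among the 8-base words that begin with TGACG, the full CRE was the most frequent in members (17 regions), followed by TGACGCTG in 13 and TGACGTGG in 12. In promoter regions of all 4 libraries the full CRE was in 438, and the next word, TGACGCCA, in 132. The centre of the full CRE lay upstream of the TSS in 12 of 17 copies in members (70.6%, 46.9 to 86.7). This is near the 61% of all member centres that lay upstream. In promoter regions of all 4 libraries 363 of 452 copies lay upstream (80.3%, 76.4 to 83.7), where 31.0% of all centres lay downstream.

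Regions were also looked up in the library that had not been used to choose them. Of 1537 promoter regions called in forskolin replicate 1 and neither vehicle library, 671 (43.7%, 41.2 to 46.1) were called in forskolin replicate 2. These 671 are the members themselves, so the share describes the rule and is no support for it. The reverse lookup, of 1041 regions called in forskolin replicate 2, gave 64.5% (61.5 to 67.3) in forskolin replicate 1. At 1 to 10 kb these shares were 47.5% (45.6 to 49.5) and 76.4% (74.2 to 78.4), and at 10 to 100 kb 46.3% (45.0 to 47.6) and 79.1% (77.7 to 80.5). Promoter regions called in 1 forskolin and both vehicle libraries were found in the other forskolin library in 97.8% and 99.5% of cases. Those found had median score percentiles of 78.8 and 73.1 in forskolin replicates 1 and 2, against 36.1 and 32.0 in members. Forskolin replicate 1 also had the longer list. The part of score and list length in these shares was not tested.

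The lookups in the vehicle libraries used the same kind of peak calls as the rule and were not tested. Of 1643 promoter regions called in both forskolin libraries and not in vehicle replicate 2, 972 (59.2%, 56.8 to 61.5) were called in vehicle replicate 1, the longer vehicle list. At 1 to 10 kb this share was 29.5% (27.4 to 31.7) and at 10 to 100 kb 31.5% (30 to 33). Of 807 promoter regions called in both forskolin libraries and not in vehicle replicate 1, 136 (16.9%, 14.4 to 19.6) were called in vehicle replicate 2, against 6.52% (5.29 to 8.01) and 5.29% (4.52 to 6.2) at the farther distances. Without vehicle replicate 1 the members numbered 1641, without vehicle replicate 2 they numbered 820, and without forskolin replicates 1 and 2 in turn they numbered 1062 and 1538.

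**Figure D5:**
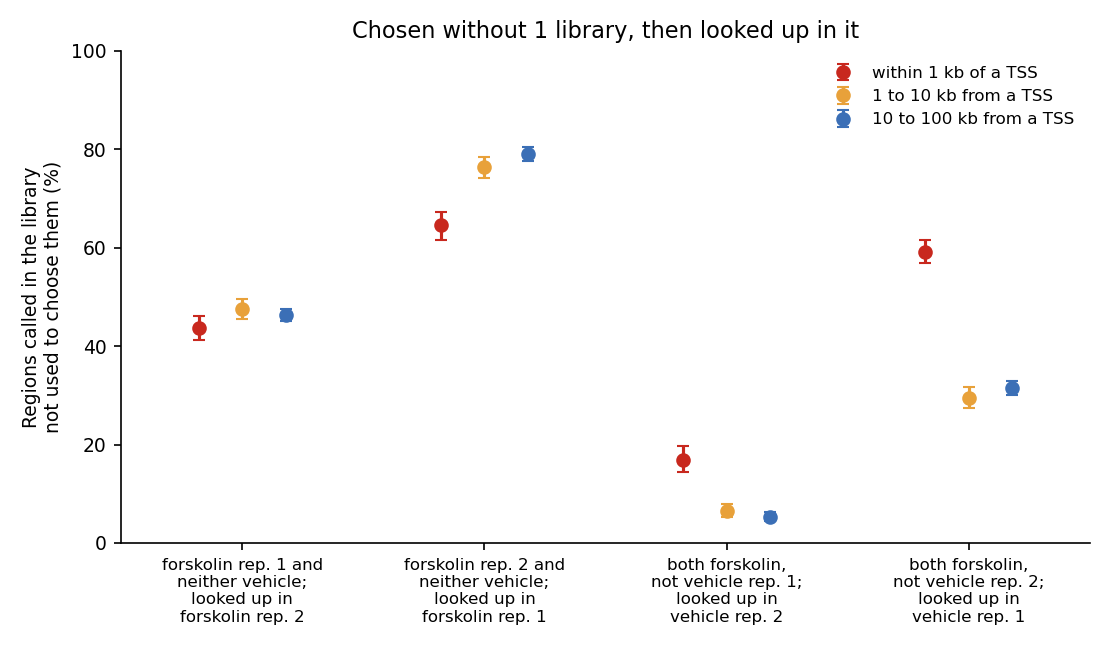
Share of regions called in the library that was not used to choose them (y axis, %), for 4 ways of choosing (x axis) and 3 distances from a TSS, with Wilson 95% intervals. Promoter regions chosen without a vehicle library have a peak in it in 16.9% and 59.2% of cases, and regions 1 to 10 kb out in 6.52% and 29.5%.

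Promoter peaks were a smaller share of the forskolin lists than of the vehicle lists. Forskolin replicates 1 and 2 had 36.2% and 42.7% of their 25566 and 19371 peaks within 1 kb of a TSS, and vehicle replicates 1 and 2 had 54.3% and 63.5% of 14686 and 10180. The means were 39.5% ± 4.56 in forskolin and 58.9% ± 6.45 in vehicle (SD, n = 2 each), a difference of -19.4 percentage points (exact two-sided permutation test over the libraries, p = 0.333, which no 2 against 2 design can go below). With equal list lengths the difference was -10.9 percentage points. In numbers the lists differed less, with 9266 and 8269 promoter peaks in forskolin and 7979 and 6460 in vehicle libraries. A full CRE was in 5.21% and 5.85% of promoter peaks in forskolin and in 5.54% and 6.86% in vehicle libraries, with overlapping groups (difference -0.666 percentage points, exact two-sided permutation p = 0.667), and with equal list lengths the difference was 1.8 percentage points.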

How the data were processed

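The deposited data are 4 phospho-CREB peak lists, 1 per library, with a score per peak whose scale the authors do not state. Bowtie, HOMER and build mm9 are named per the submitters' processing notes, without versions. For thresholds and the use of an input, the sources used here give nothing, and an input named from another series was not used here. A score served to place a peak within its own list and to look for whole steps. All peaks of a list had 1 width, between 301 and 311 bp.

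Titles gave the groups and replicate numbers, and per the series' design text the replicates were biological. Peaks sharing at least 1 bp were merged. TSS, gene names and sequence came from NCBIM37 (mm9) with GENCODE M1, and all peaks fitted its chromosomes. Coordinates are counted from 1. A CpG island needed 200 bp with at least 50% GC and an observed over expected CpG ratio of at least 0.6 within 250 bp of the TSS. Shares have Wilson 95% intervals, and per-library values an exact permutation test. Motifs were searched on both strands in windows of equal length, except the TATA box before the TSS. Python 3.11.15, numpy 2.4.6, scipy 1.17.1, pandas 2.3.3, pysam 0.24.0 and matplotlib 3.10.9 were used, and merging, classes and motif search were tested on simulated data.

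The members and gene lists were chosen with earlier results of these data known. Named genes are those of the 20 highest-ranked members, list genes with a member, the 15 highest-ranked members with a full CRE, genes with 2 or more members, and the regions beside the 1 kb limit. Kcnf1, the TATA box genes, the 2 AP-1 sequences and all AP-1 settings were chosen after their values were seen. Alternatives concerned the peaks used, overlap, libraries, promoter distance, TSS, region position and motif window. Some items that these rules select are not reported here. Cebpd, Spi1 and Map2 matched no protein-coding symbol of the annotation.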

Additional observations from a re-analysis of the deposited data

How the results depend on the processing

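The top 50% of each list gave 481 members, with a full CRE in 5.41%, a core in 43.9%, a region of all 4 libraries within 1 kb in 3.12% and a CpG island in 78.6%. Equal numbers of top-scoring peaks gave 140 members, with 6.43%, 57.1%, 8.57% and 62.1% for these 4 shares and an AP-1 site in 20%. Joining peaks within 500 bp moved the share beside a region of all 4 libraries to 2.52%, and a 500 bp limit to 3.12%. The CpG island share was 67.7% with a 2 kb limit and 84.3% with only the most upstream TSS of each gene, where the AP-1 share was 9.28%. Motif windows of 50 and 150 bp gave 24.7% and 41.7% for the core and 7.6% and 14.3% for AP-1.

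Leaving out each library in turn gave 820 to 1641 members, of which 1.43% to 3.17% had a full CRE, 27.1% to 35% a core and 7.13% to 9.76% an AP-1 site. A region of all 4 libraries (of the 3 left) lay within 1 kb in 3.11% to 8.47%, and a CpG island was at the TSS in 76.1% to 82.9%. The AP-1 share was above that of promoter regions of all libraries under each of 14 alternatives. The AP-1 alternatives, and those that leave out a library for the 2 per-library shares, were chosen after seeing the data. The difference in the full CRE between forskolin and vehicle promoter peaks reversed to 1.8 percentage points with equal lists (exact permutation p = 0.333), and without each library in turn it ran from -1.32 to -0.00665. That in the promoter share kept its sign, at -24.4 for the top 50% and -10.9 for equal lists, and ran from -24 to -14.9 without each library. The cause of these moves was not tested. Paired by replicate number (replicate block, added after seeing the data), the differences were -18.1 and -20.8 percentage points in the promoter share (mean -19.4) and -0.327 and -1 in the full CRE (mean -0.666). The exact paired permutation p was 0.5 for both, the smallest that 2 pairs allow, and no source says that a number marks a shared culture or day. The class counts come from no test. Peak lists without read totals leave the depth of each library unknown, and a missing vehicle peak is not an absence of binding.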

Other observations

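The genes Actb and Nfkb2 were named after their values were seen. Actb, the cytoplasmic actin gene, had an exonic member centred 34 bp past an internal TSS (chr5:143667420-143667743), at percentiles 86.1 and 82.3 and without a CRE core or AP-1 site. Nfkb2, an NF-kappaB subunit gene, had one centred at -144 bp from an internal TSS (84.8 and 83.5), 869 bp from a region of all 4 libraries. Predicted or unnamed genes (symbols beginning with Gm or ending in Rik) were 54 of the 692 genes with a member (7.8%, 6.03 to 10.0) and 15.5% of all annotated symbols. TSS on both strands lay within 1 kb of 34 members (5.07%, 3.65 to 7.0), a share with no comparison class here.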
